A study of Mus musculus with 12 samples.

Results

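Imprinted genes are genes of which, in at least some tissues, the copy from 1 parent is used and the copy from the other parent is silent. A list of 42 of them was followed through 12 RNA-seq libraries of mouse embryonic liver, and 38 of the 42 had a row among the 38127 genes counted. The members were the listed symbols found among the gene names of the count tables. *H19*, *Meg3*, *Rian*, and *Mirg* had no row and were not analysed here. No measured value was used to choose the list, although results of these data were known when it was drawn up.

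All libraries came from cells without Ter119 and CD45, markers of erythrocytes and of hematopoietic cells, sorted from livers of C57BL/6 embryos (C57BL/6J in the study's methods), with 3 libraries in each of 4 groups. At embryonic day 14.5 (E14.5) the groups were P2 cells (Kit+CD24+ cells within the CD54-CD31- fraction), CD54+CD31- cells, which the study calls CD324+ cells, and CD54+CD31+ cells, called CD31+ cells here. The last group was CD54+CD31- cells at E18.5. No group carried a mutation or a treatment. The mice were inbred and the counts were not split by allele, so the data hold no information on which parental copy was used. In a sorted bulk sample, fewer cells of a type and less RNA per cell cannot be told apart.

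Imprinted genes lie in clusters, each governed by a stretch of DNA that carries methylation from only 1 of the parents, and that mark is kept through development by the zinc finger proteins ZFP57 and ZFP445 with the cofactor TRIM28 and the maintenance methyltransferase DNMT1. Many of them act on fetal growth. Genes used from the paternal copy, such as *Igf2*, *Dlk1*, *Peg3*, *Mest*, and *Plagl1*, are mostly known as growth promoters or as genes of fetal progenitors, and genes used from the maternal copy, such as *Igf2r*, *Cdkn1c*, *Phlda2*, and *Grb10*, are mostly known as restraints on growth. The fetal liver is a main source of circulating IGF2.

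The sorted populations carried the markers of their labels at E14.5. The sum of 12 hepatoblast markers (*Alb*, *Afp*, *Ttr*, and others) lay between 78900 and 90650 CPM (library-scaled counts, with TMM factors) in CD54+CD31- cells and was at most 1068 in the other E14.5 libraries. The hepatoblast marker *Trf*, however, had only 1, 2, and 4 counts in the CD54+CD31- libraries, beside 10, 0, and 6 in the CD31+ libraries. The sum of 10 endothelial markers lay between 9388 and 9957 in CD31+ cells, and the sum of 10 erythroid markers between 2996 and 3212 in P2 cells against at most 699 in the other E14.5 libraries, although the erythroid marker *Alas2* was at 0 in all 12 libraries. P2 replicate 2 had an endothelial sum of 389, against 58.8 and 105 in the other P2 libraries. At E18.5 the hepatoblast sum was 4579 in replicate 1 and 46410 and 61040 in the other libraries, and a sum of 10 lung epithelium markers (*Sftpc*, *Sftpb*, and others), between 14.9 and 19.8 in the same sorted fraction at E14.5, was 19310, 8431, and 8681 in replicates 1, 2, and 3. The sum of 10 stellate and mesenchymal markers also went from 127 to 247 CPM at E14.5 to 3997 to 4423 at E18.5. The E18.5 libraries thus carried lung epithelium transcripts under a liver label. Replicate 1 stood apart from the other E18.5 libraries, and the main E18.5 results are given with and without it.

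Total counts ranged from 40714017 to 64368883 per library. Of the 38 members, 5 (*Kcnq1ot1*, *Snurf*, *Nnat*, *Zrsr1*, and *Nap1l5*) were at 0 in all 12 libraries. Each of these 5 lies wholly within the span of another gene, *Kcnq1*, *Snrpn*, *Blcap*, *Commd1*, and *Herc3*, respectively. Over the whole table, 611 of the 617 protein-coding genes that lie in an intron of another gene (99.0%) were at 0 in every library, on the opposite strand (418 of 423) as well as on the same strand (193 of 194), against 2422 of 20726 protein-coding genes that lie in no other gene (11.7%). Nested genes were thus without counts whatever their strand. That reads were counted over whole gene spans, introns included, and without strand is inferred from these zeros and not from a stated setting. Accordingly, a 0 in such a gene says nothing of its expression, and levels are compared here between libraries for 1 gene and never between genes. Other members shared part of their span with another gene. The largest were 99.7% of *Commd1*, 44.4% of *Igf2*, 44.1% of *Gnas*, 41.4% of *Airn*, 38.8% of *Ube3a*, 32.9% of *Cdkn1c*, and 32.5% of *Igf2r*. *Snrpn* shared 15.2% of its span and 34.1% of its exon bases.

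Some members hold miRNAs within their span, and those of the genes that differed most between the populations are shown here, with bases 2 to 8 (the seed, which pairs with target RNAs) in capitals. Mature sequences are from RefSeq (GRCm38.p6). *Mest* holds miR-335 and *Igf2* holds miR-483 on their own strand, while miR-127, miR-136, miR-431, miR-433, and miR-434 lie on the strand opposite to *Rtl1* and are known to be able to cleave its RNA.
mmu-miR-335-5p: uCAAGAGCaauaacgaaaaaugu
mmu-miR-335-3p: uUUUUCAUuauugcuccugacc
mmu-miR-483-3p: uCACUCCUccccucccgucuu
mmu-miR-127-3p: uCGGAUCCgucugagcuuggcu
mmu-miR-136-5p: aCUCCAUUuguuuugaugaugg
mmu-miR-431-5p: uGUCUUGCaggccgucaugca
mmu-miR-433-3p: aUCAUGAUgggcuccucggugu
mmu-miR-434-3p: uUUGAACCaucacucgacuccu
In all, 4 members held 19 mature miRNAs with 19 different seeds. None of these miRNAs had a row in the count tables, and the values below are those of the host genes.

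Promoter windows of 300 bases around the gene start (RefSeq, GRCm38.p6) were found for 33 of the members and comprised 48 windows. The letters TGCCGC, bound by ZFP57 when methylated, occurred on either strand in 12 of these windows (25.0%) and in 3813 of all 32851 windows of the table (11.6%). Some windows overlap, *Snrpn* and *Snurf* sharing 1, and the 12 lie at 10 distinct places and the 48 at 44. The member windows also held more CpG dinucleotides, with a median of 16.5 against 7.0. AGATAA, a sequence recognized by GATA factors, was present in 2 member windows (4.2%, against 11.2% of all windows), and CACGTG, the E-box, in 3 (6.2%, against 7.2%). These 3 motifs were searched as exact letters on both strands and do not overlap each other, so these shares describe the windows and not binding. For 4 members to which the values below return, 1 window each is printed next, the first by start that holds the letters marked. *Mest* also has a window without TGCCGC (chr6:30733256-30733555). Capitals mark TGCCGC or its complement in *Mest* (chr6:30737800-30738099, plus strand), AGATAA or its complement in *Tspan32* (chr7:143004796-143005095, plus strand) and *Slc22a18* (chr7:143473539-143473838, plus strand), and CG in *Peg3* (chr7:6730370-6730669, minus strand).
*Mest*: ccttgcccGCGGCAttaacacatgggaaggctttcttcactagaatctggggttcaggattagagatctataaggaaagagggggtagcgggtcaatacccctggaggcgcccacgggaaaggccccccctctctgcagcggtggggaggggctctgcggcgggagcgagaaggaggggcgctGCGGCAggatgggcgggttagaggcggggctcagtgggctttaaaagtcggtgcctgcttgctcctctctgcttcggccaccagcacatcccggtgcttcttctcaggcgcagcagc
*Tspan32*: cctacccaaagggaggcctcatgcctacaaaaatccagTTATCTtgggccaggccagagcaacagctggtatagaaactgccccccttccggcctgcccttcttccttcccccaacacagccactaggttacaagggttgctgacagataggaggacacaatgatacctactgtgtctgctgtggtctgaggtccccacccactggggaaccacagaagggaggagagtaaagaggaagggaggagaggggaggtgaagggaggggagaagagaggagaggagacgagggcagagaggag
*Slc22a18*: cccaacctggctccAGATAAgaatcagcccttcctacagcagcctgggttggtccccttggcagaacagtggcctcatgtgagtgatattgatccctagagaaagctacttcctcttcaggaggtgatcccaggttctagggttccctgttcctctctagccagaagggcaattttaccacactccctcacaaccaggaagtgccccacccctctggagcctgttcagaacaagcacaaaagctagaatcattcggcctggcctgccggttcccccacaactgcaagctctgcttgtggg
*Peg3*: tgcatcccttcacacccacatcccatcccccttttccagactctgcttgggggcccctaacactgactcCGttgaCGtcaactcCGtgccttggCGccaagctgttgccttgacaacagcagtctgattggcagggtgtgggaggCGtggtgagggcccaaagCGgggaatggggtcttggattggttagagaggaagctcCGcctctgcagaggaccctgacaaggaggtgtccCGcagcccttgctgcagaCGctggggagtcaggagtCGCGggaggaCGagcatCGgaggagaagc
*Peg3* and *Usp29* start 147 bases apart on opposite strands, and their windows shared 263 bases. *Tspan32* and *Slc22a18*, whose windows both hold AGATAA, had opposite patterns in the data, as described below.

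The first question was how the imprinted genes were distributed over the 3 populations of the E14.5 liver. Of the 38 members, 30 passed the filter on low counts in the 9 E14.5 libraries, and 27 of these 30 differed among the 3 populations (edgeR's quasi-likelihood test, Benjamini-Hochberg adjusted p below 0.05, here named called), beside 86.9% of all genes tested. CD54+CD31- cells had the highest level, separated from both other populations by the test, for 13 members: *Igf2*, *Igf2r*, *Cdkn1c*, *Phlda2*, *Slc22a18*, *Dlk1*, *Rtl1*, *Peg3*, *Usp29*, *Zim1*, *Grb10*, *Ddc*, and *Impact*. In CD31+ cells 8 members were highest in the same sense: *Airn*, *Cd81*, *Mest*, *Copg2*, *Ppp1r9a*, *Plagl1*, *Ndn*, and *Mkrn3*. P2 cells had the highest level of 1 member, *Tspan32*. How all genes tested divide in this way was not computed, so this division describes the members and is not set against the whole table. *Ascl2* and *Snrpn* passed the filter only through CD54+CD31- libraries, so that their being high there is no finding, and they are given by their counts. Each count of members below includes them unless stated. Of the tested members other than *Ascl2*, 7 had no population separated from both others: *Peg10* and *Sgce* were higher in CD54+CD31- and CD31+ cells than in P2 cells, and *Snrpn*, *Ube3a*, *Blcap*, *Gnas*, and *Commd1* had neighbours in their order that did not differ beyond their spread. Members of 1 cluster were not always highest in the same population. The summed share of the 38 members in the library totals was between 0.130% and 0.159% in P2 cells, between 0.767% and 0.832% in CD31+ cells, and between 1.61% and 1.81% in CD54+CD31- cells at E14.5, where *Igf2* alone made up between 54.9% and 55.2% of them.

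**Figure D1:**
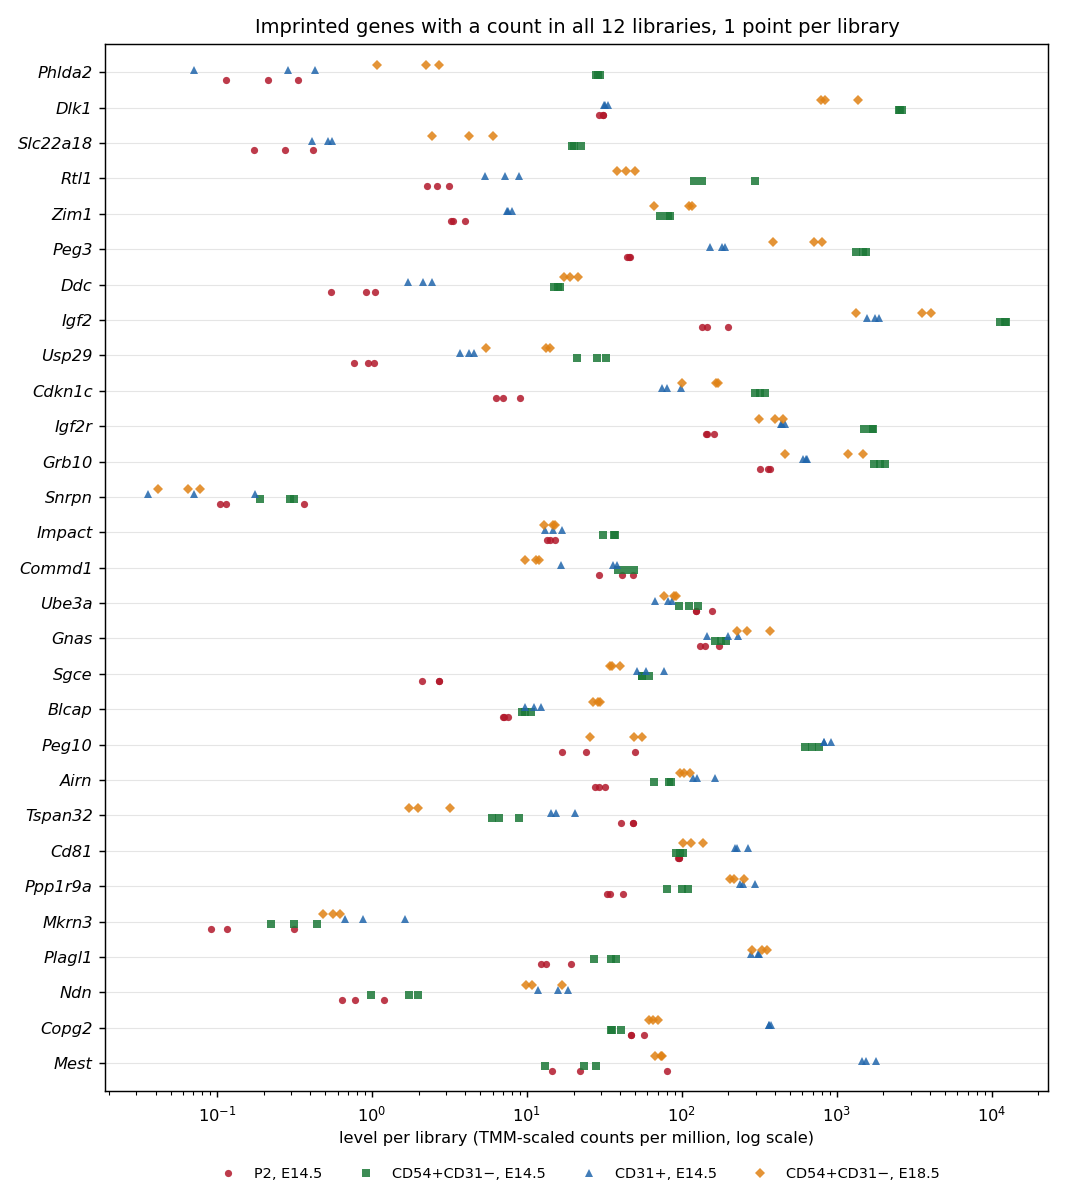
Level of 29 imprinted genes with a count in all 12 libraries, in TMM-scaled CPM on a log axis, 1 point per library with color and shape for the 4 groups. Genes are ordered by the ratio of CD54+CD31- to CD31+ cells at E14.5, from *Phlda2* at the top, high in CD54+CD31- cells, to *Mest* at the bottom, high in CD31+ cells. P2 libraries lie at the left in most genes and at the right in *Tspan32*.

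Against CD54+CD31- cells, P2 cells had lower levels of 21 of the 30 members tested and higher levels of 2, and 7 were not called. Over all 15461 genes 70.0% were called, 33.8% higher and 36.1% lower in P2 cells. Without *Ascl2* and *Snrpn*, 20 of 28 were lower and 2 higher. The median log2 fold change was -1.94 over the 30 members and -0.01 over all genes. By more than 4-fold, 15 of the 30 members were lower and 1 was higher, beside 3033 lower and 615 higher of the 15461 genes (23.6% in either direction). The genes lower in P2 cells included paternally and maternally used ones: 12 of 15 and 9 of 14 tested, by textbook assignment. With the authors' normalization factors in place of TMM, the log2 fold changes of all genes shifted by a median of -0.26 in this comparison, and the call of *Copg2* was lost. Then 1 member was higher and 23 lower in P2 cells, and the share of called genes that was higher went from 48.3% to 38.2% over the whole table.

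Against CD31+ cells, 21 of the 30 members were lower in P2 cells and 2 were higher, beside 39.4% and 34.3% of all genes and 73.7% called in either direction. The median log2 fold change was -1.38 over the members and -0.13 over all genes. By more than 4-fold, 12 members were lower and 0 higher, beside 3270 lower and 524 higher of 15461 genes (24.5% in either direction). The authors' factors shifted all genes by a median of -0.37 here and gave 2 members higher and 24 lower, with 33.9% of the called genes of the whole table higher in place of 46.6%. In the third comparison, 9 members were higher and 15 lower in CD31+ than in CD54+CD31- cells and 6 were not called, beside 31.7% higher, 34.0% lower, and 65.6% called in all. The median was -0.90 over the members, -0.53 without *Ascl2* and *Snrpn* (9 higher and 14 lower of 28), and -0.03 over all genes, 4 members were higher and 10 lower by more than 4-fold, and 23% of all genes differed by more than 4-fold. The authors' factors shifted this comparison by 0.11 and left the members at 9 higher and 15 lower, with 53.4% of the called genes of the whole table higher in place of 48.3%. Since the comparisons share libraries, their counts are not independent of each other.

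**Figure D2:**
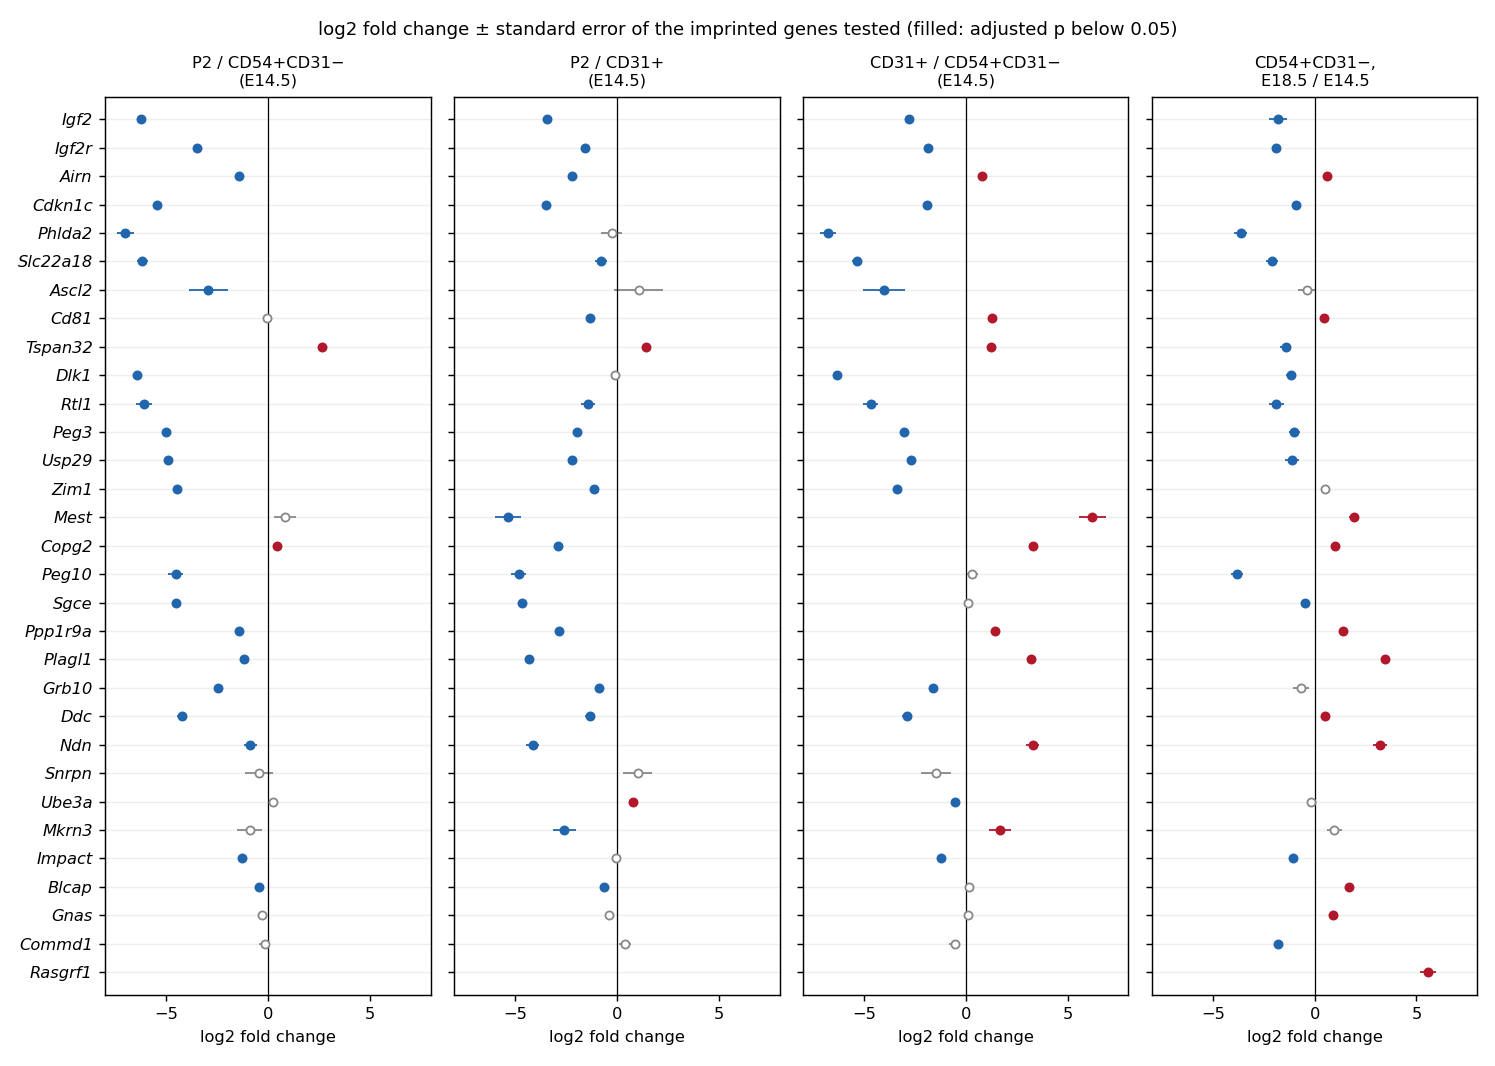
Log2 fold change of each tested imprinted gene with its standard error, in 4 panels for P2 against CD54+CD31- cells, P2 against CD31+ cells, CD31+ against CD54+CD31- cells (all E14.5), and CD54+CD31- cells at E18.5 against E14.5. Filled points were called (red higher, blue lower in the first-named group) and open points were not, with 21 of 30 members lower in P2 cells in each of the first 2 panels.

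*Igf2*, *Igf2r*, and *Grb10* stood highest in the hepatoblast-rich CD54+CD31- cells. *Igf2* (ENSMUSG00000048583, chr7:142650766-142666816), the fetal growth factor itself, was at 12150, 11330, and 12310 CPM in the CD54+CD31- libraries, at 1779, 1877, and 1580 in CD31+ cells, and at 136, 198, and 145 in P2 cells. The groups were far apart and did not overlap. It was 75.7-fold lower in P2 than in CD54+CD31- cells (log2 fold change -6.24, SE 0.18, adjusted p = 5.91e-10), 11.0-fold lower in P2 than in CD31+ cells (-3.46, SE 0.15, adjusted p = 4.84e-08), and 6.87-fold lower in CD31+ than in CD54+CD31- cells (-2.78, SE 0.15, adjusted p = 7.96e-08). The hepatoblast marker sum was 767 to 773 CPM in P2 cells against 78900 to 90650 in CD54+CD31- cells. How far hepatoblast RNA enters the *Igf2* level of P2 cells was not tested.

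*Igf2r* (ENSMUSG00000023830, chr17:12682406-12769664), the receptor that delivers IGF2 to lysosomes, had 1702, 1497, and 1723 CPM in CD54+CD31- cells. It had 438, 441, and 461 in CD31+ cells and 144, 145, and 162 in P2 cells. This is the order of *Igf2*, with smaller differences: *Igf2r* was 11.1-fold lower in P2 (adjusted p = 6.54e-10) and 3.69-fold lower in CD31+ cells (adjusted p = 4.03e-08) than in CD54+CD31- cells. *Airn*, the noncoding RNA that starts within *Igf2r* on the other strand (chr17:12741311-12860136) and is known to silence it on the paternal copy, had another order, with 165, 125, and 118 CPM in CD31+ cells, 83.1, 66.0, and 85.5 in CD54+CD31- cells, and 27.7, 32.0, and 29.3 in P2 cells. It was 1.73-fold higher in CD31+ than in CD54+CD31- cells (adjusted p = 0.000716), the opposite direction to *Igf2r*. The log2 ratio of *Igf2r* to *Airn* counts within a library, which does not depend on scaling between libraries, was 4.40 ± 0.09 (SD, n = 3) in CD54+CD31- cells, 2.34 ± 0.15 (SD, n = 3) in P2 cells, and 1.73 ± 0.28 (SD, n = 3) in CD31+ cells. Ratios are given as descriptions, since an exact permutation test of 3 libraries against 3 cannot go below 0.10.

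*Grb10* (chr11:11930508-12038683), an adaptor that dampens signalling of the insulin and IGF receptors, had 1908, 1733, and 2058 CPM in CD54+CD31- cells, 647, 637, and 606 in CD31+ cells, and 320.4, 369, and 361 in P2 cells. The groups did not overlap, and the order was again that of *Igf2*, with P2 cells 5.5-fold (adjusted p = 7.29e-09) and CD31+ cells 3.03-fold (adjusted p = 1.75e-07) below CD54+CD31- cells. Its neighbour *Ddc*, a decarboxylase that makes dopamine and serotonin and is imprinted in the heart, was at 16.2, 15.9, and 14.9 CPM in CD54+CD31- cells, 2.42, 2.12, and 1.71 in CD31+ cells, and 0.919, 0.541, and 1.04 in P2 cells. *Ddc* differed more than *Grb10* between the populations, and the log2 ratio of *Grb10* to *Ddc* was 6.92 ± 0.17 in CD54+CD31- cells, 8.25 ± 0.20 in CD31+ cells, and 8.77 ± 0.56 in P2 cells (SD, n = 3 each).

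Other genes of the IGF2 axis, a list of 12 receptors, binding proteins, and mediators that are not members, were mostly lower in P2 than in CD54+CD31- cells. Of the 12, 11 were lower and 1 higher, beside 36.1% and 33.8% of all genes, and the median log2 fold change was -2.64 beside -0.01. *Igfbp1*, a secreted IGF-binding protein (log2 fold change -6.97, SE 0.28), and *Irs1*, a substrate of the receptors (-5.55, SE 0.23), fell most, and the gene that was higher was *Igf1r*, the receptor through which IGF2 signals to the cell, with 202, 227, and 232 CPM in P2 cells against 22.1, 31.2, and 31.2 in CD54+CD31- cells (log2 fold change 2.95, SE 0.15, adjusted p = 3.73e-08). *Igf1r* was also higher in CD31+ than in CD54+CD31- cells (3.24, SE 0.15). The population with the highest *Igf2* level thus had the lowest level of *Igf1r*, the reverse of its *Insr*, at 290.3, 252, and 298 CPM against 54.4, 54, and 55.5 in P2 cells. Between P2 and CD31+ cells the list had 8 genes lower and 2 higher, beside 39.4% and 34.3% of all genes, and 5 lower without P2 replicate 1. *Igfbp4* (-5.29, SE 0.51) and *Igf1* (-4.12, SE 0.23) were lowest in P2 cells relative to CD31+ cells, and *Irs2* (1.96, SE 0.18) and *Igf2bp1* (0.48, SE 0.09) were higher, the latter not with the authors' factors (0.11, adjusted p = 0.341). Between CD31+ and CD54+CD31- cells 4 genes were higher (31.7% of all genes), *Igf1* (1.21, SE 0.20) among them, and 8 lower (34.0% of all genes), led by *Igfbp1* (-6.36, SE 0.27) and *Irs1* (-4.88, SE 0.22).

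The maternally used genes next to *Kcnq1* on chromosome 7 divided between the populations. *Cdkn1c* (ENSMUSG00000037664, chr7:143458339-143461050), which encodes the cell cycle inhibitor p57, had 298, 342, and 318 CPM in CD54+CD31- cells, 80.1, 98.9, and 74.0 in CD31+ cells, and 6.96, 9.07, and 6.35 in P2 cells. No library of 1 group overlapped with another, and P2 cells were 43.4-fold below CD54+CD31- (adjusted p = 1.41e-09) and 11.4-fold below CD31+ cells (adjusted p = 5.37e-08). *Phlda2* (chr7:143501545-143503150), known to restrain placental growth, was at 29.6, 28.7, and 28.0 CPM in CD54+CD31- cells and at no more than 0.431 in any other E14.5 library. It was 130-fold lower in P2 (log2 fold change -7.02, SE 0.42, adjusted p = 1.40e-07) and 109-fold lower in CD31+ cells (-6.77, SE 0.40, adjusted p = 1.70e-07), on counts of 912 to 1134 in CD54+CD31- and 4 to 24 in the other libraries. *Slc22a18*, a transporter gene beside it (chr7:143473736-143499334), had 22.3, 19.6, and 20.1 CPM in CD54+CD31- cells, between 0.410 and 0.555 in CD31+ cells, and between 0.173 and 0.416 in P2 cells. It was 72.4-fold lower in P2 (adjusted p = 1.25e-08) and 41.7-fold lower in CD31+ than in CD54+CD31- cells (adjusted p = 2.44e-08). Between P2 and CD31+ cells the libraries overlapped, and it was called lower in P2 cells (-0.8, SE 0.29, adjusted p = 0.0292). That call was lost without CD31+ replicate 1 (0.0617) or 3 (0.103) and without P2 replicate 1 (0.0912) or 3 (0.113). It was also lost in the 6 libraries alone (0.153) and with all 12 fitted together (0.0986). *Ascl2*, a transcription factor gene used in placenta and intestine, was near the limit of detection, with 15 to 21 counts in CD54+CD31- cells and 0 to 6 in the other E14.5 libraries. It passed the filter only through the CD54+CD31- libraries and counted among the members called lower in P2 and in CD31+ cells, so no fold or test is drawn from it. CD31+ replicate 3, with 5 counts, was the only CD31+ library with a count.

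The tetraspanin genes at the other end of the cluster had different patterns. *Tspan32* (ENSMUSG00000000244, chr7:143005046-143019644), expressed in blood cells, reached 48.7, 48.6, and 40.6 CPM in the P2 libraries. It was at 14.2, 20.3, and 15.5 in CD31+ cells and 5.97, 8.84, and 6.56 in CD54+CD31- cells. It was the 1 tested member with its highest level in P2 cells separated from both others, 6.38-fold above CD54+CD31- cells (log2 fold change 2.67, SE 0.18, adjusted p = 3.93e-07) and 2.74-fold above CD31+ cells (1.45, SE 0.17, adjusted p = 2.34e-05). The erythroid marker sum was also highest in P2 cells (2996 to 3212 CPM), and its part in this difference was not tested. *Cd81*, a broadly expressed tetraspanin, had 219, 267, and 227 CPM in CD31+ cells, 91.9, 102, and 97.5 in CD54+CD31- cells, and 95.7, 95.6, and 93.9 in P2 cells. It was 2.44-fold higher in CD31+ than in CD54+CD31- cells (adjusted p = 6.01e-07) and was not called between P2 and CD54+CD31- cells with TMM (log2 fold change -0.05, SE 0.09, adjusted p = 0.644), whereas the authors' factors put it lower in P2 cells (-0.31, adjusted p = 0.00554).

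In the *Dlk1* cluster on chromosome 12, the paternally used genes marked CD54+CD31- cells. *Dlk1* (ENSMUSG00000040856, chr12:109452823-109463336), a membrane protein known as a surface marker of hepatoblasts, had 2528, 2634, and 2576 CPM in CD54+CD31- cells, 33.2, 31.3, and 31.9 in CD31+ cells, and 30.9, 30.9, and 29.3 in P2 cells. The level was 86.0-fold lower in P2 (log2 fold change -6.43, SE 0.09, adjusted p = 8.74e-11) and 80.7-fold lower in CD31+ cells (-6.33, SE 0.09, adjusted p = 1.21e-10). Between P2 and CD31+ cells it was not called (-0.09, SE 0.07, adjusted p = 0.288) but was lower in P2 cells with the authors' factors (-0.46, adjusted p = 0.000627) and with a minimum of 10 counts in every library (-0.23, adjusted p = 0.0163). The hepatoblast marker sum was 767 to 773 CPM in P2 and 953.5 to 1068 in CD31+ cells, against 78900 to 90650 in CD54+CD31- cells. How far hepatoblast RNA enters the low levels of *Dlk1* and other members in P2 and CD31+ cells was not tested. *Rtl1* (chr12:109589193-109600330), a gene derived from a retrotransposon and known for its role in placental vessels, had 295, 121, and 135 CPM in CD54+CD31- cells, between 5.34 and 8.89 in CD31+ cells, and between 2.27 and 3.16 in P2 cells. Its spread within CD54+CD31- cells was wide, replicate 1 being highest, yet the groups did not overlap, and it was 69.2-fold lower in P2 (adjusted p = 3.07e-07) and 25.9-fold lower in CD31+ cells (adjusted p = 1.46e-06). If reads were counted without strand, as the zeros of genes nested on an opposite strand would allow but no stated setting says, RNA from the opposite strand, which carries the miRNAs printed above, would be part of the *Rtl1* counts. *Dio3*, a deiodinase that inactivates thyroid hormone, did not pass the filter, with 2, 15, and 26 counts in CD54+CD31- cells, 0 in the CD31+ libraries, where a count of 0 allows up to 3 per library, and 0, 0, and 1 in P2 cells.

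The *Peg3* cluster followed the same order at every gene. *Peg3* (ENSMUSG00000002265, chr7:6703892-6730431), a zinc finger gene, had 1484, 1338, and 1538 CPM in CD54+CD31- cells, 191, 182, and 153 in CD31+ cells, and 46.1, 44.2, and 45.7 in P2 cells, which put P2 cells 32.5-fold below CD54+CD31- (adjusted p = 2.38e-10) and 3.89-fold below CD31+ cells (adjusted p = 1.08e-07). *Usp29*, which starts beside it on the other strand (chr7:6730578-6967219), was at 28.2, 21.2, and 32.2, at 4.24, 3.71, and 4.56, and at 1.03, 0.770, and 0.943 CPM in the same order of groups. It was 30.0-fold lower in P2 than in CD54+CD31- cells (adjusted p = 1.20e-08), close to the value of *Peg3*. The log2 ratio of *Peg3* to *Usp29* counts was 5.76 ± 0.21 in CD54+CD31-, 5.64 ± 0.19 in P2, and 5.39 ± 0.29 in CD31+ cells (SD, n = 3 each), so that the ratio of the pair whose promoter windows overlap changed far less than the level of either gene. *Zim1*, the maternally used zinc finger gene of the cluster, was at 81.1, 72.1, and 83.8 CPM in CD54+CD31- cells, between 7.41 and 8.01 in CD31+ cells, and between 3.23 and 4 in P2 cells, 22.7-fold lower in P2 (adjusted p = 4.39e-10) and 10.4-fold lower in CD31+ cells (adjusted p = 2.39e-09). The ratios with *Peg3* were added after the values had been seen.

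*Mest* and its neighbour *Copg2* marked CD31+ cells. *Mest* (ENSMUSG00000051855, chr6:30723547-30748465), which encodes a hydrolase-like protein of fetal mesoderm and fat, had 1449, 1787, and 1543 CPM in CD31+ cells, 13, 28, and 23.3 in CD54+CD31- cells, and 14.4, 80.1, and 22.0 in P2 cells. It was 74.1-fold higher in CD31+ than in CD54+CD31- cells (log2 fold change 6.21, SE 0.66, adjusted p = 1.33e-05). P2 cells were 41.3-fold below CD31+ cells (-5.37, SE 0.63, adjusted p = 2.22e-05), and this difference grew to -6.45 (adjusted p = 2.14e-08) without P2 replicate 2, the library with the endothelial marker sum of 389. Against CD54+CD31- cells, P2 cells were not called (0.84, SE 0.53, adjusted p = 0.183), and the sign depended on 1 library: it was -0.24 (adjusted p = 0.457) without P2 replicate 2 and 1.22 (adjusted p = 0.0341) without P2 replicate 1. *Copg2*, a coat protein subunit whose 3′ end overlaps that of *Mest* on the other strand (chr6:30747554-30896794), had 365, 378, and 365 CPM in CD31+ cells, 35.5, 35.2, and 40.5 in CD54+CD31- cells, and 46.8, 57.4, and 47.3 in P2 cells. It was 9.91-fold higher in CD31+ than in CD54+CD31- cells (adjusted p = 2.11e-09), a smaller difference than that of *Mest*. P2 cells were 1.35-fold above CD54+CD31- cells (log2 fold change 0.43, SE 0.10, adjusted p = 0.00303), which was not called with the authors' factors (0.17, adjusted p = 0.217). The log2 ratio of *Mest* to *Copg2* counts was 2.10 ± 0.13 in CD31+, -0.86 ± 0.56 in CD54+CD31-, and -0.77 ± 1.13 in P2 cells (SD, n = 3 each). How far RNA from *Mest* that runs on beyond its end enters the *Copg2* count was not tested.

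The *Peg10* and *Sgce* genes, which start side by side on opposite strands, were lower in P2 cells than in the other E14.5 populations. *Peg10* (ENSMUSG00000092035, chr6:4747306-4760517), a retrotransposon-derived gene needed for the placenta, had 834, 913, and 825 CPM in CD31+ cells, 689, 628, and 772 in CD54+CD31- cells, and 16.9, 50.1, and 23.9 in P2 cells. It was 23.3-fold below CD54+CD31- (log2 fold change -4.54, SE 0.36, adjusted p = 1.12e-06) and 28.5-fold below CD31+ cells (-4.83, SE 0.36, adjusted p = 8.48e-07) in P2 cells. Without P2 replicate 2, the library with the endothelial marker sum of 389, these differences grew to -5.1 and -5.4. *Sgce*, the epsilon-sarcoglycan gene (chr6:4674350-4747207), had 77.3, 59.1, and 51.4 CPM in CD31+, 55.6, 61.2, and 55.3 in CD54+CD31-, and 2.11, 2.71, and 2.70 in P2 cells, and was 23.2-fold and 25.1-fold lower in P2 cells (adjusted p = 5.96e-09 and 3.07e-08). Neither gene was called between CD31+ and CD54+CD31- cells (log2 fold change 0.29, SE 0.31 for *Peg10* and 0.12, SE 0.15 for *Sgce*), although the *Peg10* libraries did not overlap and the 6 libraries fitted alone called it higher in CD31+ cells (0.32, adjusted p = 0.0211). The log2 ratio of *Peg10* to *Sgce* was 3.45 ± 0.66 in P2, 3.6 ± 0.22 in CD54+CD31-, and 3.79 ± 0.32 in CD31+ cells (SD, n = 3 each). *Ppp1r9a*, an actin-binding protein gene of the same cluster, was highest in CD31+ cells, with 298, 237, and 250 CPM against 109, 80.3, and 101 in CD54+CD31- and 33.1, 41.4, and 34.6 in P2 cells (2.69-fold above CD54+CD31- cells, adjusted p = 9.20e-06).

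*Plagl1* (ENSMUSG00000019817, chr10:13060504-13131694), a zinc finger factor that acts on other imprinted genes and on the cell cycle, had 309.9, 315, and 278 CPM in CD31+ cells, 27.2, 37.5, and 34.6 in CD54+CD31- cells, and 12.4, 19.1, and 13.2 in P2 cells. It was 9.05-fold higher in CD31+ than in CD54+CD31- cells (log2 fold change 3.18, SE 0.18, adjusted p = 1.17e-07) and 20.4-fold lower in P2 than in CD31+ cells (-4.35, SE 0.19, adjusted p = 4.61e-08). The populations with high *Plagl1* and with high *Igf2* were therefore not the same ones at E14.5.

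In the *Snrpn* to *Ube3a* region of chromosome 7, whose human counterpart is lost in Prader-Willi and Angelman syndromes, *Ndn* and *Mkrn3* were highest in CD31+ cells. *Ndn* (chr7:62346569-62350262), a MAGE family gene, had 15.8, 18.3, and 11.8 CPM in CD31+ cells, 0.990, 1.98, and 1.73 in CD54+CD31- cells, and 0.781, 1.19, and 0.635 in P2 cells. It was 9.73-fold higher in CD31+ than in CD54+CD31- cells (adjusted p = 5.09e-06) and 17.8-fold lower in P2 than in CD31+ cells (adjusted p = 1.02e-06). P2 cells were also below CD54+CD31- cells (log2 fold change -0.87, SE 0.32, adjusted p = 0.0330), though the libraries overlapped and the call was lost without CD54+CD31- replicate 2 (0.113) or 3 (0.0933) and without P2 replicate 1 (0.0797) or 3 (0.117). *Mkrn3*, a ring finger gene whose loss brings early puberty in people, had 0.664, 1.62, and 0.871 CPM in CD31+ cells, between 0.222 and 0.441 in CD54+CD31- cells, and between 0.0919 and 0.312 in P2 cells. It was 3.23-fold higher in CD31+ than in CD54+CD31- cells (log2 fold change 1.69, SE 0.55, adjusted p = 0.0207), a call lost without CD31+ replicate 2 (1.16, adjusted p = 0.114) or CD54+CD31- replicate 1 (0.0579) or 3 (0.0828), and 6.02-fold lower in P2 than in CD31+ cells (adjusted p = 0.00205, log2 fold change -2.59, and -3.31 without P2 replicate 2). *Magel2* did not pass the filter, with 13, 7, and 3 counts in CD31+ cells and at most 4 in the other E14.5 libraries.

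*Snrpn*, a spliceosomal protein of neurons, was barely detected, at 0.311, 0.189, and 0.296 CPM in CD54+CD31-, 0.115, 0.104, and 0.366 in P2, and 0.0359, 0.0713, and 0.174 in CD31+ cells, from 2 to 19 counts per library. It passed the filter only through CD54+CD31- libraries and was called in no comparison at E14.5. *Snrpn* shares 34.1% of its exon bases with other genes, and how far that lowers its counts was not tested. *Ube3a*, a ubiquitin ligase gene imprinted in neurons, was at 124, 124, and 157 CPM in P2 cells, 96.0, 111, and 128 in CD54+CD31- cells, and 67.1, 81.6, and 86.1 in CD31+ cells. It was 1.71-fold higher in P2 than in CD31+ cells (log2 fold change 0.78, SE 0.14, adjusted p = 0.000528) and 1.43-fold lower in CD31+ than in CD54+CD31- cells (-0.52, SE 0.14, adjusted p = 0.00810). P2 and CD54+CD31- cells overlapped, and their difference was 0.26 (SE 0.14, adjusted p = 0.121) with TMM and 0.00 with the authors' factors.

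*Gnas* (chr2:174284320-174346744), the gene of the stimulatory G protein alpha subunit and of several imprinted transcripts, was at 179, 192, and 165 CPM in CD54+CD31-, 200, 232, and 145 in CD31+, and 142, 173, and 131 in P2 cells, which overlapped in every pair and were not called. It differed on the log2 scale by -0.29 in P2 cells (SE 0.17, adjusted p = 0.148) from CD54+CD31- cells and by -0.38 (SE 0.17, adjusted p = 0.0578) from CD31+ cells. Both were called with the authors' factors (-0.54 and -0.74). The first was also called in the 6 libraries alone (0.0273). The second was called with DESeq2 (0.036) or its size factors (0.0461), with a minimum of 10 counts (0.0136), and without CD31+ replicate 3 (0.00734) or P2 replicate 2 (0.0205). *Impact*, which restrains activation of the stress kinase GCN2, was at 36.8, 31.1, and 36.3 CPM in CD54+CD31- cells and between 13 and 16.8 in every other E14.5 library (2.47-fold lower in P2 cells, adjusted p = 4.24e-06). *Blcap* was between 7.03 and 12.4 CPM in all 9 libraries, 1.38-fold lower in P2 than in CD54+CD31- cells (adjusted p = 0.0101). *Commd1*, a regulator of copper and of NF-kappaB, was not called between CD31+ and CD54+CD31- cells (log2 fold change -0.55, SE 0.28, adjusted p = 0.111) but was with the replicate number as a block (-0.63, adjusted p = 0.0253) and without CD31+ replicate 2 (-0.83, adjusted p = 0.0458). *Rasgrf1*, an exchange factor for Ras, had 0 to 5 counts in the E14.5 libraries and was not tested there.

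**Figure D3:**
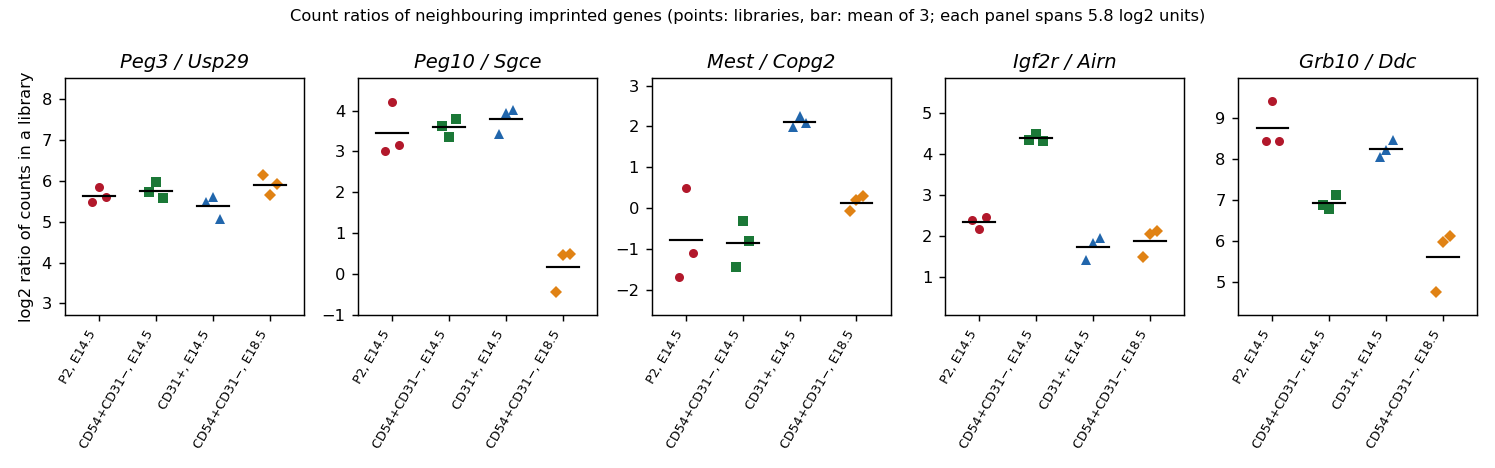
Log2 ratio of the raw counts of 2 neighbouring genes within each library (points) with the mean of 3 libraries (bar), for 5 pairs and the 4 groups, every panel spanning the same number of log2 units. *Peg3* to *Usp29* stays between 5.07 and 6.16 in all 12 libraries, *Peg10* to *Sgce* falls to between -0.44 and 0.48 at E18.5 alone, and *Mest* to *Copg2* is highest in CD31+ cells.

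The last comparison asked how the CD54+CD31- fraction differed between E18.5 and E14.5. Of 30 members tested, 11 were higher and 14 lower at E18.5, beside 35.9% and 33.5% of the 15863 genes tested (69.4% called in either direction). The median difference on the log2 scale was -0.43 for the members and 0.03 for all genes. *Rasgrf1* and *Mkrn3* passed the filter only through E18.5 libraries, and without them 10 of 28 were higher and 14 lower (median -0.58). *Snrpn* did not enter. Without E18.5 replicate 1, 13 members were higher and 16 lower of 33 tested. Beside this, 72.7% of all genes were called, and 50.6% of the called genes were higher, against 51.7% in the main fit. With the authors' factors all genes shifted by a median of 0.23, and 13 members were higher and 12 lower. Levels printed for E18.5 are scaled over all 12 libraries, which puts the difference between ages 0.17 lower on the log2 scale than the fit of the 6 libraries behind the tests. The lung epithelium, stellate and mesenchymal, and endothelial marker sums were higher in every E18.5 library than in any E14.5 library of this fraction (endothelial sums 181 to 234 against 40.2 to 68.7 CPM), and the hepatoblast sums were lower. Of the 11 hepatoblast markers tested, however, only 3 were called lower and 0 higher, with a median log2 fold change of -1.28. The sum of 10 macrophage markers was also higher (372 to 585 against 180 to 294 CPM), but mostly through *Lyz2* (530, 194, and 204 against 14.8, 28.1, and 27.2 CPM). The other markers, *Vsig4* apart, were not called, and the list's median log2 fold change was -0.3. Age and the makeup of the sorted cells cannot be told apart here.

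*Igf2* went from between 11330 and 12310 CPM at E14.5 to 1326, 3533, and 4054 at E18.5, lowest in replicate 1, the library with the hepatoblast sum of 4579. It was 3.55-fold lower (log2 fold change -1.83, SE 0.44, adjusted p = 0.00911) and lower by -1.49 (adjusted p = 9.37e-05) without that library. *Igf2r* had 315, 401, and 453 CPM at E18.5 and was 3.71-fold lower (-1.89, SE 0.18, adjusted p = 0.000137, and -1.78 without replicate 1), while *Airn*, at 113, 97.7, and 104 CPM, was 1.53-fold higher (0.61, SE 0.13, adjusted p = 0.00606, and 0.53 without replicate 1). The log2 ratio of *Igf2r* to *Airn* thereby went from 4.40 to 1.88 ± 0.35 (SD, n = 3), a value close to that of E14.5 CD31+ cells. *Grb10* had 464, 1185, and 1477 CPM, lowest again in replicate 1, and was not called (-0.69, SE 0.40, adjusted p = 0.16), except when all 12 libraries were fitted together (-0.87, adjusted p = 0.0258). *Ddc*, at 17.4, 19, and 21.3 CPM, was 1.4-fold higher (adjusted p = 0.00797), a call lost when all 12 libraries were fitted together (0.199). In the IGF2 axis list 5 genes were higher (35.9% of all genes), led by *Igfbp2* (3.46, SE 0.59, and 3.90 without replicate 1) and *Igf1r* (3.14, SE 0.17, and 3.02), and 3 lower (33.5% of all genes), among them *Igf2bp1*, an RNA-binding protein of fetal tissues that binds *Igf2* mRNA (-2.73, SE 0.11, and -2.68 without replicate 1), and *Igfbp4* (-1.68, SE 0.37, and -1.35).

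*Peg10* had the largest fall of the members. Its level was 25.5, 48.8, and 55.3 CPM at E18.5 against 628 to 772 at E14.5, 14.2-fold lower (log2 fold change -3.83, SE 0.30, adjusted p = 7.13e-05, and -3.57, adjusted p = 1.04e-07, without replicate 1). *Sgce* changed much less, to 34.5, 35.3, and 39.7 CPM (1.38-fold lower, adjusted p = 0.00339, and not called with the authors' factors, adjusted p = 0.0711). The log2 ratio of *Peg10* to *Sgce* was 0.17 ± 0.52 (SD, n = 3) at E18.5, and its highest E18.5 value, 0.48, lay below the lowest of the 9 E14.5 libraries, 3.00. *Phlda2* was at 1.08, 2.24, and 2.69 CPM, 12.6-fold lower (-3.66, SE 0.32, adjusted p = 9.86e-05, and -3.38 without replicate 1), *Slc22a18* at 2.43, 4.26, and 6.01 CPM (4.31-fold lower, adjusted p = 0.000950), and *Rtl1* at 38.1, 50, and 43.9 CPM (3.70-fold lower, adjusted p = 0.00358). All 3 E18.5 libraries lay below every E14.5 library for each of these genes.

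*Dlk1* had 1364, 787, and 842 CPM at E18.5, highest in replicate 1 although that library had the lowest hepatoblast sum, and was 2.27-fold lower than at E14.5 (-1.18, SE 0.26, adjusted p = 0.00602, and -1.5 without replicate 1). *Cdkn1c*, at 100, 171, and 166 CPM, was 1.93-fold lower (-0.95, SE 0.20, adjusted p = 0.00513, and -0.76 without replicate 1). *Peg3*, at 389, 714, and 799 CPM, was 2.03-fold lower (-1.02, SE 0.27, adjusted p = 0.0133, and -0.78 without replicate 1), and *Usp29*, at 5.45, 14.1, and 13.3 CPM, was 2.20-fold lower (-1.13, SE 0.36, adjusted p = 0.0258), a call lost without E14.5 replicate 1 (0.0761) or 3 (0.0895) and with the authors' factors (0.0502). Their log2 ratio stayed at 5.91 ± 0.25 (SD, n = 3). *Zim1*, in contrast, was at 66.4, 116, and 112 CPM and was not called in the 6 libraries (0.49, SE 0.21, adjusted p = 0.0710) but was higher without E18.5 replicate 1 (0.69, adjusted p = 0.000124), so that the log2 ratio of *Peg3* to *Zim1* went from 4.20 ± 0.01 to 2.67 ± 0.15 (SD, n = 3 each).

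*Rasgrf1* (chr9:89909908-90026977) had 501, 335, and 329 counts (7.75, 4.33, and 4.56 CPM) against 5, 5, and 4 counts at E14.5. It passed the filter only through the group where it was high, so these counts are a description, with no test. Among the other members, *Plagl1* rose most, to 284, 327, and 354 CPM, 11.1-fold (3.47, SE 0.15, adjusted p = 1.57e-05, and 3.53 without replicate 1), a range that overlapped that of the E14.5 CD31+ libraries. *Ndn*, at 16.9, 9.90, and 10.8 CPM, was 9.17-fold higher (3.20, SE 0.34, adjusted p = 0.000214, and 2.9 without replicate 1). *Mest*, at 67.0, 73.8, and 74.6 CPM, rose 3.83-fold (1.94, SE 0.25, adjusted p = 0.000576, and 1.97 without replicate 1), far below its level in CD31+ cells. *Blcap*, at 29.5, 28.7, and 26.6 CPM, rose 3.26-fold (1.70, SE 0.11, adjusted p = 3.98e-05), and *Ppp1r9a*, at 253, 216, and 206 CPM, 2.64-fold (1.4, SE 0.16, adjusted p = 0.000318). *Gnas* (368, 228, and 264 CPM) and *Cd81* (136, 102, and 115 CPM) were higher by 1.83-fold and 1.39-fold (adjusted p = 0.00735 and 0.0160).

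*Tspan32*, at 1.73, 3.21, and 1.97 CPM, was 2.72-fold lower (adjusted p = 0.00359), and the erythroid marker sum of the fraction also went from between 449 and 699 CPM to between 139 and 261. *Copg2* rose 2.01-fold (adjusted p = 0.000177), *Impact* fell 2.14-fold (adjusted p = 0.000198), and *Commd1* 3.48-fold (adjusted p = 5.64e-05). *Commd1* shares 99.7% of its span with other genes, so its counts may come from a small part of the gene. *Ube3a*, at 76.6, 88.9, and 91.2 CPM, was not called (-0.19, SE 0.12, adjusted p = 0.183). Its sign turned with the authors' factors (0.04), and it was lower when all 12 libraries were fitted together (-0.38, adjusted p = 0.0328). *Ascl2* (-0.39, SE 0.46, adjusted p = 0.474) was not called either. *Dio3* had 2 to 6 counts, *Magel2* 8, 27, and 31, and *Snrpn* 3 to 5 counts per E18.5 library.

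**Figure D4:**
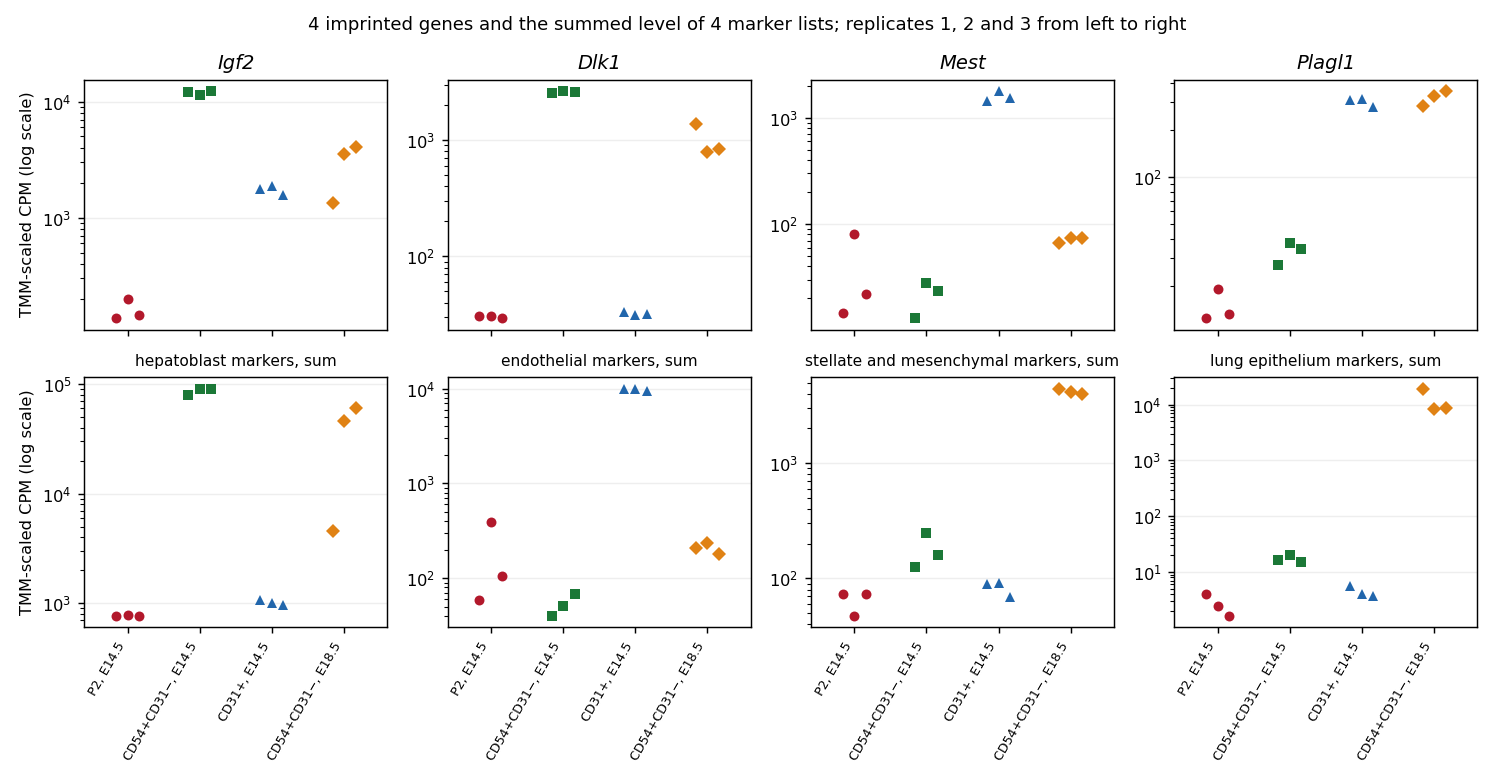
Levels of *Igf2*, *Dlk1*, *Mest*, and *Plagl1* (upper row) and summed levels of 4 marker lists (lower row) in TMM-scaled CPM on log axes, 1 point per library and the 4 groups side by side. *Igf2* is highest where the hepatoblast sum is highest, and the E18.5 libraries carry lung epithelium sums of 8431 to 19310 against at most 19.8 at E14.5.

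The genes known to keep imprints, a list of 10 of which 9 were tested, were mostly higher in P2 cells than in the other populations. In P2 cells 7 were higher and 1 lower than in CD54+CD31- cells, beside 33.8% and 36.1% of all genes (median on the log2 scale 0.72, beside -0.01), and *Ehmt2* was not called (0.02). Compared with CD31+ cells 8 were higher and 1 lower, beside 34.3% and 39.4% of all genes (median 0.69, beside -0.13). *Dnmt1* was at 684, 711, and 751 CPM in P2, 341, 338, and 349 in CD54+CD31-, and 475, 444, and 441 in CD31+ cells. *Ctcf*, the insulator protein that separates *Igf2* from *H19* enhancers (1.15, SE 0.10), and *Smchd1* (1.18, SE 0.12) rose most against CD54+CD31- cells, and *Uhrf1*, which guides DNMT1 to replicated DNA (1.37, SE 0.09), and *Trim28* (1.23, SE 0.09) against CD31+ cells. The gene lower in P2 cells was *Zfp57* in both comparisons. Its levels were 32.5, 32.6, and 37.3 CPM in CD31+ cells, 1.36, 1.2, and 1.58 in CD54+CD31- cells, and 0.436, 1.29, and 0.578 in P2 cells, and it was higher in CD31+ than in CD54+CD31- cells by 4.61 (SE 0.30, adjusted p = 3.61e-07) on the log2 scale. Its difference between P2 and CD54+CD31- cells (-0.86, SE 0.33, adjusted p = 0.0380) was not called without CD54+CD31- replicate 1 (0.0757) or 3 (0.117) or P2 replicate 1 (0.0986) or 3 (0.128). *Zfp445*, the other zinc finger protein of this role, was at 112, 102, and 111 CPM in P2 cells and between 62.1 and 83.1 in the other E14.5 libraries, and its difference from CD54+CD31- cells (0.41, SE 0.10, adjusted p = 0.00340) was not called with the authors' factors (0.15, adjusted p = 0.154). With those factors 6 genes of the list were higher in P2 than in CD54+CD31- cells and 7 than in CD31+ cells.

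Between CD31+ and CD54+CD31- cells 3 of the 9 were higher and 4 lower, beside 31.7% and 34.0% of all genes, and apart from *Zfp57* their log2 fold changes lay within 0.58 of 0, with *Ctcf* (0.46, SE 0.10) the next highest and *Trim28* (-0.58, SE 0.09) and *Ehmt2* (-0.42, SE 0.09) the lowest. At E18.5, 6 of the 9 were lower than at E14.5 in CD54+CD31- cells and 2 higher, beside 33.5% and 35.9% of all genes, with a median of -0.50. *Uhrf1* (-2.70, SE 0.23, adjusted p = 8.53e-05, and -2.49 without E18.5 replicate 1) and *Dnmt1* (-1.60, SE 0.12, adjusted p = 6.02e-05, and -1.5) fell most. *Zfp57* rose from between 1.2 and 1.58 CPM to 20.5, 19.3, and 17.6 (3.98, SE 0.16, adjusted p = 1.42e-05, and 3.90 without E18.5 replicate 1), and *Zfp445* by 0.37 (SE 0.09, adjusted p = 0.00703). *Dppa3*, the factor of the list that protects imprints in the zygote, had too few counts to be tested.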

How the data were processed

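RNA of 12 libraries was prepared with a stranded total RNA kit for low input. The authors trimmed reads with cutadapt 1.11, aligned them to GRCm38 with STAR 2.5.0a, and counted reads per gene with featureCounts 1.4.6-p3. For each library the authors deposited raw counts per gene, used here, and a normalized value, treated as a score, which served only to recover their normalization factors (R 3.5.1, DESeq2). Strand and feature settings of the counting were not given in the sources used here. Of 38127 gene identifiers, 37932 matched GENCODE M21, and 39 gene names occurred more than once.

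Counts were filtered with filterByExpr, scaled by TMM, and tested with edgeR 4.0.16 (quasi-likelihood, 2-sided, Benjamini-Hochberg adjustment over all genes, threshold 0.05) in R 4.3.3. The 9 E14.5 libraries shared 1 fit, and the 6 CD54+CD31- libraries another. Levels are CPM, each count over the TMM-scaled library total. The SE was the log2 fold change over the square root of F. Scripts were tested on simulated data. Groups came from the sample labels. For the E14.5 populations the study gives independent litters as replicates, without saying which populations came from the same litter. No litters are described for E18.5, where p-values measure the spread between these libraries, which may be technical. Replicates differed by more than sampling noise, so none was counted as a duplicate.

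Libraries with the same number deviated together in CD31+ and CD54+CD31- cells (r = 0.334, 0.26, and 0.122 over genes). The tests printed for this comparison nevertheless come from the fit without pairing. The fit with the replicate number as a block was an alternative, and its value is given where it changes a call in this comparison. In the other comparisons at least 1 correlation was below 0.1, which cannot show that those libraries were not paired.

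The members and lists were chosen with earlier results of these data known. The genes named were the 6 members with the largest called change in each direction and no overlap between libraries, 16 members given whatever their result, and the 2 largest called changes each way of the lists of imprint maintenance factors, IGF2 axis, and other imprinted genes. The remaining members are described by their values. Alternatives were other size factors, the authors' factors, DESeq2 1.42.0, other low count filters, other sets of libraries in the fit, genes above 1% of the counts left out, a replicate block, and each library left out in turn.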

Additional observations from a re-analysis of the deposited data

How the results depend on the processing

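The numbers of members called kept within 1.5 times their value under every alternative that gave one, except that 1 member in place of 2 was higher in P2 than in CD54+CD31- cells with the authors' factors. Of the values of single members and the counts of lists under an alternative, 2030 were rated the same. For a single member this means the same direction and side of the threshold. For a count of a list it means a value within 1.5 times that of the main fit. Of the rest, 23 values lost a call, 30 gained one, 11 turned sign, and 10 list counts moved. The sign turned for *Mest* (-0.24 without P2 replicate 2 to 1.22 without replicate 1), *Ube3a* (-0.00 with the authors' factors), and *Commd1* (-0.32 to 0.03 over the left-out libraries, the highest without P2 replicate 3) between P2 and CD54+CD31- cells. Between P2 and CD31+ cells it turned for *Phlda2* (-0.65 to 0.27, with 0.27 without CD31+ replicate 1 and 0.11 without P2 replicate 1) and *Impact* (-0.15 to 0.10, with 0.10 without CD31+ replicate 3 and 0.05 without P2 replicate 1). Between CD31+ and CD54+CD31- cells it turned for *Sgce* (-0.06 without CD31+ replicate 1 to 0.17), *Blcap* (-0.01 without CD31+ replicate 3 to 0.25), and *Gnas* (-0.14 without CD31+ replicate 2 to 0.19), and between ages for *Ube3a* (0.04 with the authors' factors). None of these differences was called in the 9 or 6 libraries. Apart from the authors' factors and left-out libraries, whose construction differs as named, the cause was not tested.

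Leaving out 1 library at a time gave 2 to 3 members higher and 19 to 22 lower for P2 against CD54+CD31- cells, 2 to 3 and 20 to 22 for P2 against CD31+ cells, 8 to 9 and 15 to 17 for CD31+ against CD54+CD31- cells, and 11 to 13 and 13 to 16 for E18.5 against E14.5, with 27 to 29 members differing among the E14.5 populations. With the replicate block the counts were 3 and 22, 2 and 22, 9 and 16, and 11 and 14, and 29 members differed. Under the block *Ube3a* (0.26, adjusted p = 0.0196) and *Gnas* (-0.29, 0.0279) became called between P2 and CD54+CD31- cells, and *Gnas* (-0.37, 0.00943) between P2 and CD31+ cells. Only between CD31+ and CD54+CD31- cells did libraries of the same number deviate together in every replicate. Between P2 and CD31+ cells r was 0.015, 0.077, and 0.336. Low correlations cannot show that libraries were not paired. DESeq2 gave no value for the test over all 3 populations, and the fit of only 6 libraries none for that test or for the ages. The low counts of *Ascl2*, *Dio3*, *Magel2*, and *Snrpn*, mostly fewer than about 20 per library, limit what can be read from these members.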

Other observations

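A further 32 imprinted genes that were not on the list of 42 had rows, and 25 of them were tested. Against CD54+CD31- cells 15 were lower and 8 higher in P2 cells (median log2 fold change -0.85), beside 36.1% and 33.8% of all genes. Against CD31+ cells 15 were lower and 5 higher (median -1), beside 39.4% and 34.3% of all genes, and 3 were higher with the authors' factors. *Slc38a4*, an amino acid transporter gene of liver and placenta, had 418, 434, and 492 CPM in CD54+CD31- cells, 49.2, 49.4, and 62.3 in CD31+ cells, and 4.34, 7.35, and 5.54 in P2 cells (-6.30, SE 0.21, adjusted p = 2.14e-09 by edgeR for P2 against CD54+CD31- cells). *Peg12* (3.37, SE 0.19) and *Htr2a*, a serotonin receptor gene (3.15, SE 0.29), were the genes most above CD54+CD31- cells in P2 cells. *Ampd3*, the AMP deaminase of erythrocytes, was at 90.4, 92.9, and 80.9 CPM in P2 cells and at no more than 21.9 in the other E14.5 libraries, and *Slc22a3*, a cation transporter gene, was 1.68 (SE 0.21) above CD31+ cells on the log2 scale. *Klf14* was at 0 in the P2 libraries, and the other E14.5 groups had few counts, so no fold is given.

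Between CD31+ and CD54+CD31- cells 12 were higher and 7 lower (median 0.32), beside 31.7% and 34.0% of all genes. *Kcnq1*, a potassium channel gene, was at 53.5, 34.3, and 37.7 CPM in CD31+ and between 1.70 and 2.60 in CD54+CD31- cells (4.37, SE 0.27), and *Peg12* was also higher (3.31, SE 0.19), while *Slc38a4* (-3.07, SE 0.18) and *Cobl* (-2.70, SE 0.17) were lower. At E18.5, 12 were higher and 7 lower than at E14.5 (median 0.33), beside 35.9% and 33.5% of all genes. *Osbpl5* (5.70, SE 0.28, and 5.40 without E18.5 replicate 1) and *Dcn*, the decorin gene of mesenchymal cells (3.88, SE 0.21, and 3.92), rose most. *Dcn* had 107, 125, and 115 CPM where the stellate and mesenchymal marker sums were 4423, 4115, and 3997, and the part of those cells was not tested. *Asb4* (-1.93, SE 0.22, and -1.72) was lower. *Slc22a3*, at 0.155, 0.349, and 0.471 CPM against 2.57, 2.55, and 2.44 at E14.5, passed the filter only through the E14.5 libraries, so no test is given.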
